A study of Mus musculus with 19 samples.

Results

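The response of the mouse forebrain to sleep deprivation was compared between mice lacking EphA4 and wild-type littermates. The quantity examined is the interaction, the change after sleep deprivation in the knockout minus the change in wild type, and it was computed for every probe set from all 19 of the 19 arrays of the study. An interaction above 0 means that the knockout's change lay above that of wild type, whether because the knockout's level went up more or because the wild type's level went down more. Total RNA from forebrain was hybridised to Affymetrix Mouse Gene 2.0 ST arrays, and each deposited value is a log2 expression level of a probe set on an array. The groups were 4 wild-type controls, 6 sleep-deprived wild-type samples, 4 EphA4 knockout controls and 5 sleep-deprived EphA4 knockout samples, all labelled with the strain Mixed BL6/10 and kept in 12 h of light and 12 h of dark. Deprived mice were kept awake for 6 h and controls were not disturbed. The sources used here do not give age, sex, the design of the knockout allele or the way the mice were kept awake. No label ties an array to an animal, so the p-values reflect variation among these samples, which may be technical.

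EphA4 is a receptor tyrosine kinase that binds ephrins on neighbouring cells, and its signalling, through effectors such as chimaerin, reshapes the actin cytoskeleton of axons and dendritic spines. In the adult forebrain it sits at synapses and at contacts between neurons and astrocytes. Sleep loss is known to alter forebrain transcripts of stress chaperones, activity-regulated genes, synaptic signalling and metabolism, so an interaction asks whether losing the receptor alters such a response.

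The deposited table is labelled incomplete by its submitters, and it held 8751 probe sets. A single gene symbol was attached to 1308 of them, which represent 1121 genes. Another 1178 had several symbols, and 6265 are unnamed here. Probe set values ran from 2.18 to 14.22, array medians from 5.90 to 6.07, and correlations between arrays from 0.981 to 0.993. No probe set was named Epha4, so the genotype labels could not be checked by its level. Map2, a dendritic microtubule protein and the 1 neuron marker measured of 27 listed, had a mean log2 level of 11.77, above 98.9% of probe sets, and an interaction of -0.01 (95% confidence interval -0.16 to 0.14). Wdr78, an axonemal dynein gene, was the 1 of 15 choroid plexus and ependyma markers measured, and its interaction was 0.00 (95% confidence interval -0.23 to 0.23). None of 15 astrocyte, 20 oligodendrocyte, 15 microglia and 19 blood vessel and blood markers was measured under its own symbol, so shifts in these cell types were not tested. In bulk tissue, fewer cells of a type and less RNA per cell cannot be told apart.

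The response to sleep deprivation differed between genotypes at 6 of 8751 probe sets, 0.0686% of those tested, at an adjusted p under 0.05 in limma with Benjamini-Hochberg adjustment. At 5 of them (0.0571%) the sleep-deprived knockout arrays stood above the arrays of every other group, and at 1 (0.0114%) the interaction was negative. Deprived knockouts stood above all others at 34 of all probe sets (0.389%), of which 32 had an unadjusted p under 0.05 for the interaction. At all 6 called probe sets the fitted changes of the genotypes had opposite signs. Choosing probe sets by the interaction favours both traits by itself, so they describe the calls and support nothing. All 6 are unnamed here and are given by their probe set number. No probe set with a gene symbol passed. Across the 6, the interaction ran in size from 0.73 to 2.06 on the log2 scale.

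The largest difference was that of probe set 17529227. Its log2 levels were 5.29, 5.29, 4.82 and 5.07 in wild-type controls, 5.05, 5.37, 4.97 and 4.93 in knockout controls, and 7.07, 6.32, 6.67, 6.62 and 7.37 in sleep-deprived knockouts, while sleep-deprived wild types had a lowest value of 4.12, a median of 4.79 and a highest value of 5.37. The 5 deprived knockout arrays lay above the other 14 without overlap, and the other 3 groups overlapped each other. The log2 change with sleep deprivation was 1.73 ± 0.21 (SE) in the knockout and -0.33 ± 0.20 (SE) in wild type, an interaction of 2.06 (95% confidence interval 1.45 to 2.67, limma adjusted p = 0.00549). Its gap between genotypes was thus -0.04 ± 0.22 (SE) in controls and 2.02 ± 0.19 (SE) after sleep deprivation. It was the only called probe set among the 18 whose interaction exceeded 1 in size.

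Probe set 17366928 was the brightest of the 6, with a mean above 96.5% of probe sets. Its log2 levels in the sleep-deprived knockouts were 10.67, 10.47, 10.61, 10.70 and 10.63. In wild-type controls they were 10.26, 10.13, 10.07 and 10.03, in knockout controls 10.01, 9.97, 10.15 and 10.03, and in sleep-deprived wild types 9.80 at the lowest, 9.99 at the median and 10.13 at the highest. Again the deprived knockouts formed a separate range above all others. The interaction was 0.73 (95% confidence interval 0.51 to 0.95, limma adjusted p = 0.00549), from a log2 change of 0.58 ± 0.08 (SE) in the knockout and -0.15 ± 0.07 (SE) in wild type.

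The same arrangement held at probe sets 17366904, 17520156 and 17247498. For 17366904, a moderately bright probe set, the deprived knockouts read 7.59, 7.66, 7.73, 7.55 and 7.71, against 7.07, 7.13, 7.23 and 6.89 in wild-type controls, 7.00, 7.11, 7.31 and 6.80 in knockout controls, and 6.55 to 7.01 with a median of 6.94 in deprived wild types. No array of the other groups reached the lowest deprived knockout, and the interaction was 0.83 (95% confidence interval 0.51 to 1.14, limma adjusted p = 0.0435). For 17520156 the deprived knockouts read 6.50, 6.25, 6.51, 6.55 and 6.75, against 6.07, 6.07, 6.05 and 5.89 in wild-type controls, 5.87, 5.80, 5.91 and 5.78 in knockout controls, and 5.57 to 6.09 with a median of 5.86 in deprived wild types. Controls of the genotypes overlapped slightly and all lay below the deprived knockouts, with an interaction of 0.86 (95% confidence interval 0.57 to 1.16, limma adjusted p = 0.0208). For 17247498 the deprived knockouts read 5.26, 5.07, 5.10, 5.09 and 5.39, against 4.59, 4.62, 4.85 and 4.86 in wild-type controls, 4.62, 4.19, 4.48 and 4.63 in knockout controls, and 4.22 to 4.74 with a median of 4.58 in deprived wild types. This probe set was dim, below the array median on all 19 arrays, and its interaction was 0.91 (95% confidence interval 0.57 to 1.24, limma adjusted p = 0.0354). In each of these 3 the wild-type change was smaller in size than the knockout's: -0.23, -0.19 and -0.20 in wild type against 0.59, 0.67 and 0.71 in the knockout.

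Probe set 17267654 was the only called one with a negative interaction, -0.76 (95% confidence interval -1.03 to -0.49, limma adjusted p = 0.0231). Its log2 levels were 5.47, 5.82, 5.62 and 5.49 in wild-type controls and 5.95, 6.17, 6.00 and 6.12 in knockout controls, without overlap. After sleep deprivation they were 5.55, 5.78, 5.53, 5.77 and 5.82 in the knockout and 5.83 at the lowest, 6.01 at the median and 6.16 at the highest in wild type, again without overlap but in the reverse order. The gap between genotypes went from 0.46 ± 0.10 (SE) in controls to -0.30 ± 0.08 (SE) after deprivation, through a change of 0.39 ± 0.09 (SE) in wild type and -0.37 ± 0.09 (SE) in the knockout.

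**Figure D1:**
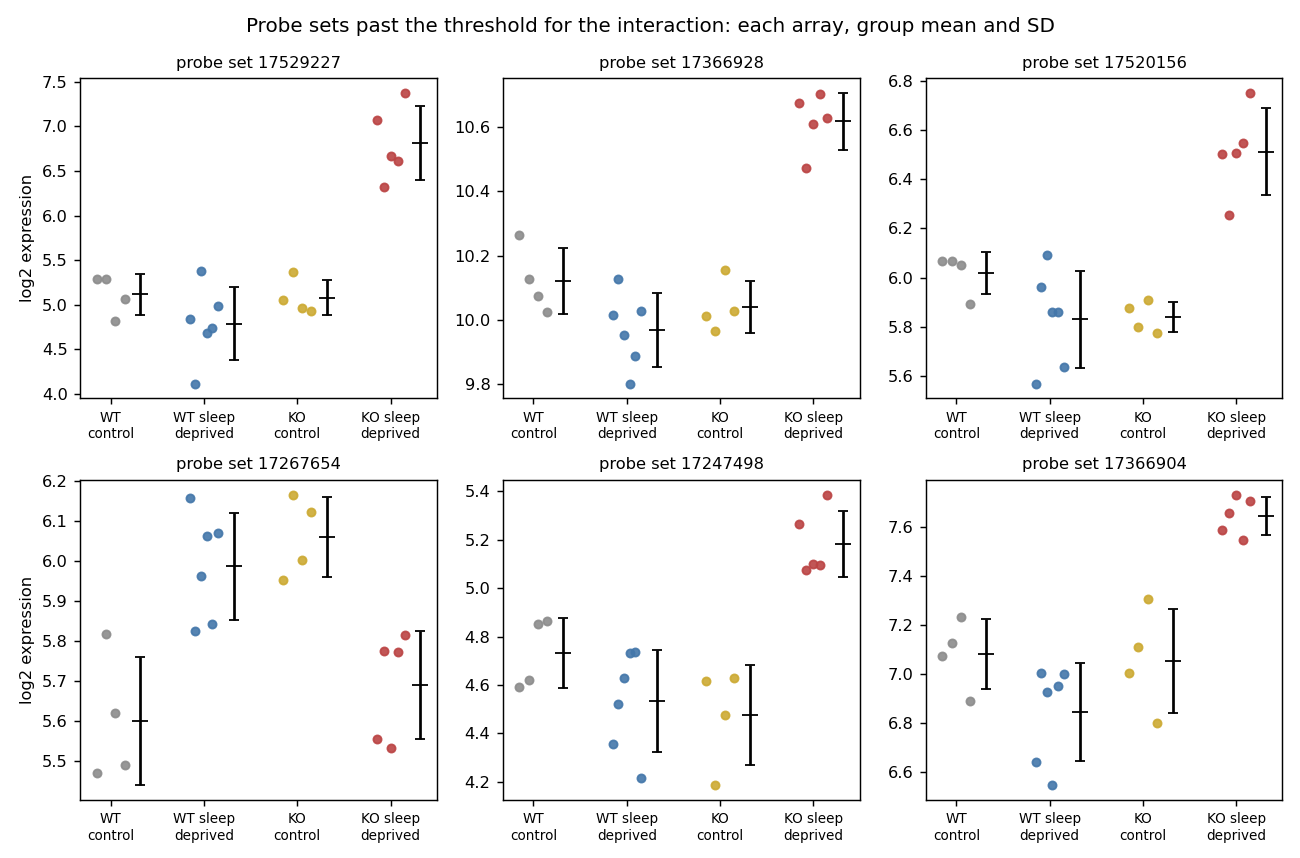
Log2 expression (y axis) of the 6 called probe sets in each array of the 4 groups (points), with the group mean and SD (bars). In 5 panels the sleep-deprived knockout arrays lie above all other arrays, and in the panel of probe set 17267654 the order of the genotypes turns between control and sleep deprivation.

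The calls rested on few arrays per group, and leaving out 1 array moved their number from 2 to 41. Without sleep-deprived wild-type replicate 3, 41 probe sets were called, 37 higher and 4 lower. Without any 1 of wild-type control replicate 1, knockout control replicates 2 and 4 and sleep-deprived knockout replicates 1 and 3, 2 were called, and without wild-type control replicate 2 or 3, 3 were called. The 2 probe sets with the smallest p were the steadiest: 17529227 missed the threshold in 1 of 30 alternatives and 17366928 in 3 of 31. Both missed it with the replicate number as a block on replicates 1 to 4 only. Probe set 17366928 also missed it after quantile normalization and without the 3 arrays of lowest weight. The others missed it in 10 (17520156), 10 (17267654), 15 (17247498) and 16 (17366904) of their alternatives.

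Of the 41 probe sets called without sleep-deprived wild-type replicate 3, 35 are unnamed here, 3 carried several symbols and 3 carried 1. The 3 genes were Gm6625 (interaction 0.87, limma adjusted p = 0.0247), Gm5528 (0.79, adjusted p = 0.0492) and Gm13981 (0.41, adjusted p = 0.0489), all predicted genes. These values are a description of what 1 array decides, and none of the 3 passed with all 19 arrays.

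**Figure D2:**
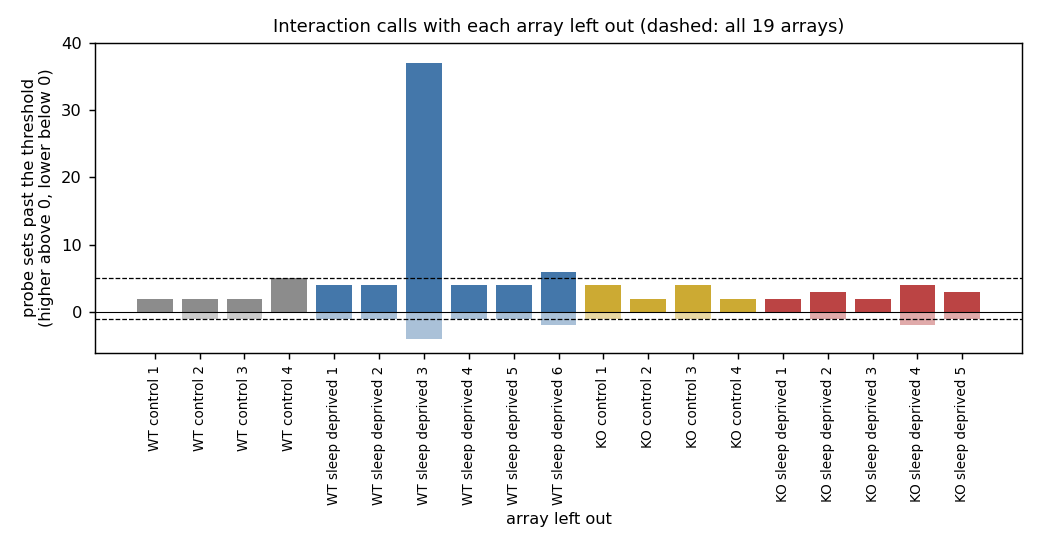
Number of probe sets called for the interaction (y axis; higher above 0, lower below 0) with all 19 arrays and after leaving out each array in turn (x axis). The bar without sleep-deprived wild-type replicate 3 reaches 37 higher and 4 lower, while the other bars total between 2 and 8.

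Below the threshold, more probe sets than the calls alone had small p-values. At an unadjusted p under 0.05 there were 1007 (11.5%), 592 with a positive interaction (6.76%) and 415 with a negative one (4.74%). Among the 592, the fitted change was upward in the knockout and downward in wild type in 554, upward in both in 32 and downward in both in 6. Among the 415, it was downward in the knockout and upward in wild type in 407. Choosing probe sets by the difference between the genotypes favours opposite signs by itself, so these tallies describe the sets and support nothing. The knockout's change was the larger in size in 418 of the 592 and in 229 of the 415. Neither set was tested as a whole.

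**Figure D3:**
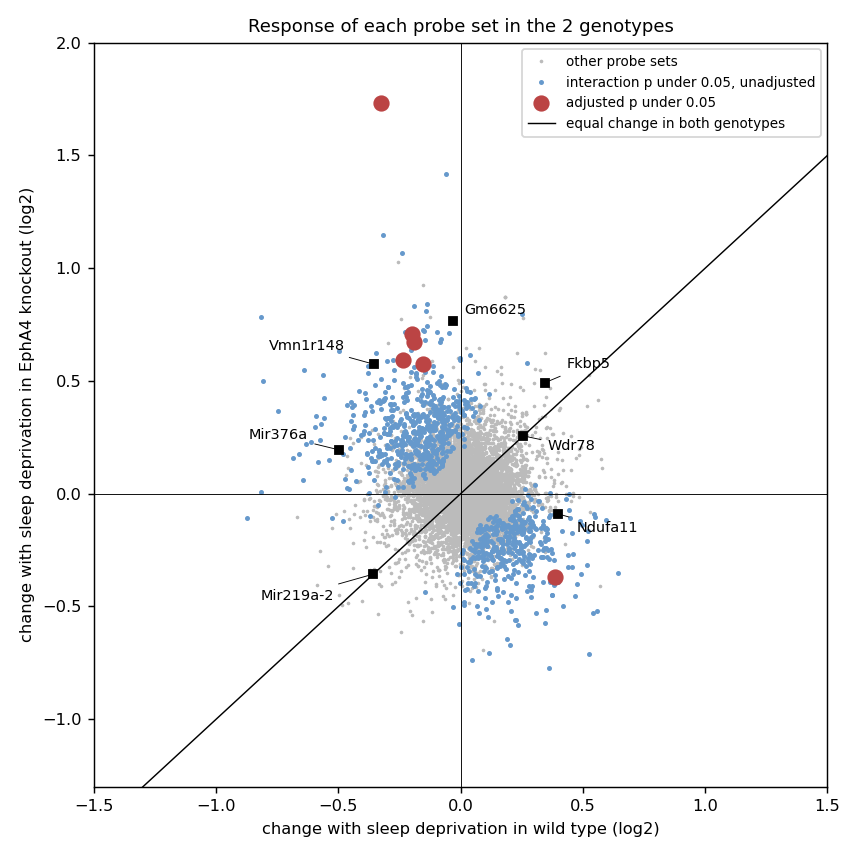
Log2 change with sleep deprivation in wild type (x axis) against that in the EphA4 knockout (y axis) for each probe set, with the called ones marked. Points on the diagonal changed alike in both genotypes, and the called probe sets lie away from it. The 2 changes share no arrays, but each point's vertical distance from the diagonal is the size of the interaction itself.

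Direction varied with brightness. Among the brightest 20% of probe sets by mean level, 194 had a positive and 43 a negative interaction at an unadjusted p under 0.05, and 65.1% of all their interactions were positive. In the dimmer groups of 20% the counts ran from 85 against 72 in the dimmest to 114 against 117, and 42.3% to 48.5% were positive. This imbalance moved with the scaling. After quantile normalization of the deposited values the brightest group held 118 positive and 100 negative, and after median centring 177 and 46. Over all probe sets the split was 536 positive and 526 negative after quantile normalization. Median centring gave 590 and 420. Without sleep-deprived knockout replicate 5, the array of lowest weight, the negative count of the brightest group was 69 and the positive count 226.

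All 5 sleep-deprived knockout arrays lay above the other 14 at 34 probe sets (0.389%) and below them at 4 (0.0457%). Only 3 of the 4 below had distinct values. For comparison, the wild-type controls were above all others at 7 (0.08%), the deprived wild types at 1 (0.0114%) and the knockout controls at 3 (0.0343%). They were below all others at 4 (0.0457%), 1 (0.0114%) and 4 (0.0457%), in the same order. The groups hold unlike numbers of arrays, and a smaller group stands apart more easily, so these counts are not directly comparable. With quantile normalization the deprived knockouts were above at 24 and below at 14, and with median centring at 24 and 5. Of the 34, 27 are unnamed here, 6 carried 1 symbol and 1 carried several. The 6 with 1 symbol were the predicted genes Gm6625, Gm6272, Gm19399 and Gm5958, with Spatc1l and Ssxb8, and Rplp1 was among the 4 below. Gm6272 (interaction 0.38, limma adjusted p = 0.211), Gm19399 (0.53, adjusted p = 0.246), Gm5958 (0.32, adjusted p = 0.304), Spatc1l (0.36, adjusted p = 0.396) and Ssxb8 (0.51, adjusted p = 0.412) did not pass, and these 5 are named here after their values were seen.

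Among genes with a symbol, the smallest adjusted p was 0.166, so the genes below are described by their values and none is called. Of the 1121 genes, 71 had a positive and 36 a negative interaction at an unadjusted p under 0.05 (9.55%, beside 11.5% of all probe sets), and the median interaction over genes was 0.01.

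Gm6625, a predicted pseudogene, had the smallest p. Its log2 levels were 10.33, 10.46, 10.05, 9.97 and 10.15 in sleep-deprived knockouts, 9.70, 9.41, 9.58 and 9.50 in wild-type controls, 9.40, 9.45, 9.35 and 9.51 in knockout controls, and 9.22 at the lowest, 9.46 at the median and 9.87 at the highest in deprived wild types. Every deprived knockout array was above every other array. The interaction was 0.80 (95% confidence interval 0.44 to 1.15, limma adjusted p = 0.166), with a change of 0.77 in the knockout and -0.03 in wild type. Pseudogenes can share probes with their parent genes, so its source transcript is uncertain.

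Pcid2, which encodes a subunit of the complex that couples transcription to mRNA export, had log2 levels of 6.53, 6.08, 6.35, 6.30 and 6.34 in sleep-deprived knockouts. In wild-type controls they were 6.01, 6.06, 6.20 and 6.06, in knockout controls 6.09, 6.04, 6.02 and 5.94, and in deprived wild types 5.82 at the lowest, 5.97 at the median and 6.00 at the highest. Of the 5 deprived knockouts, 4 lay above all other arrays and replicate 2 lay among the controls. The interaction was 0.44 (95% confidence interval 0.21 to 0.66, limma adjusted p = 0.179).

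Gm20385, a predicted protein-coding gene, had its lowest values in the knockout controls, 8.08, 8.03, 8.04 and 8.05, below every other array. Wild-type controls read 8.17, 8.10, 8.35 and 8.23, deprived wild types 8.17 to 8.47 with a median of 8.21, and deprived knockouts 8.52, 8.59, 8.39, 8.42 and 8.57. The gap between genotypes was -0.16 ± 0.08 (SE) in controls and 0.25 ± 0.07 (SE) after deprivation, and the interaction was 0.41 (95% confidence interval 0.19 to 0.63, limma adjusted p = 0.179).

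Vmn1r148, a vomeronasal receptor gene, had the largest interaction among these genes, 0.93 (95% confidence interval 0.42 to 1.43, limma adjusted p = 0.203). Deprived knockouts read 7.09, 6.48, 6.68, 6.63 and 7.31, knockout controls 6.40, 6.51, 6.39 and 5.75, wild-type controls 6.13, 6.01, 6.31 and 5.91, and deprived wild types 5.35 to 6.04 with a median of 5.77. The deprived genotypes did not overlap, while 1 knockout control, replicate 4, lay below all wild-type controls. Vomeronasal receptors form a large family in which some genes are closely similar, and a probe set may read several of them.

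**Figure D4:**
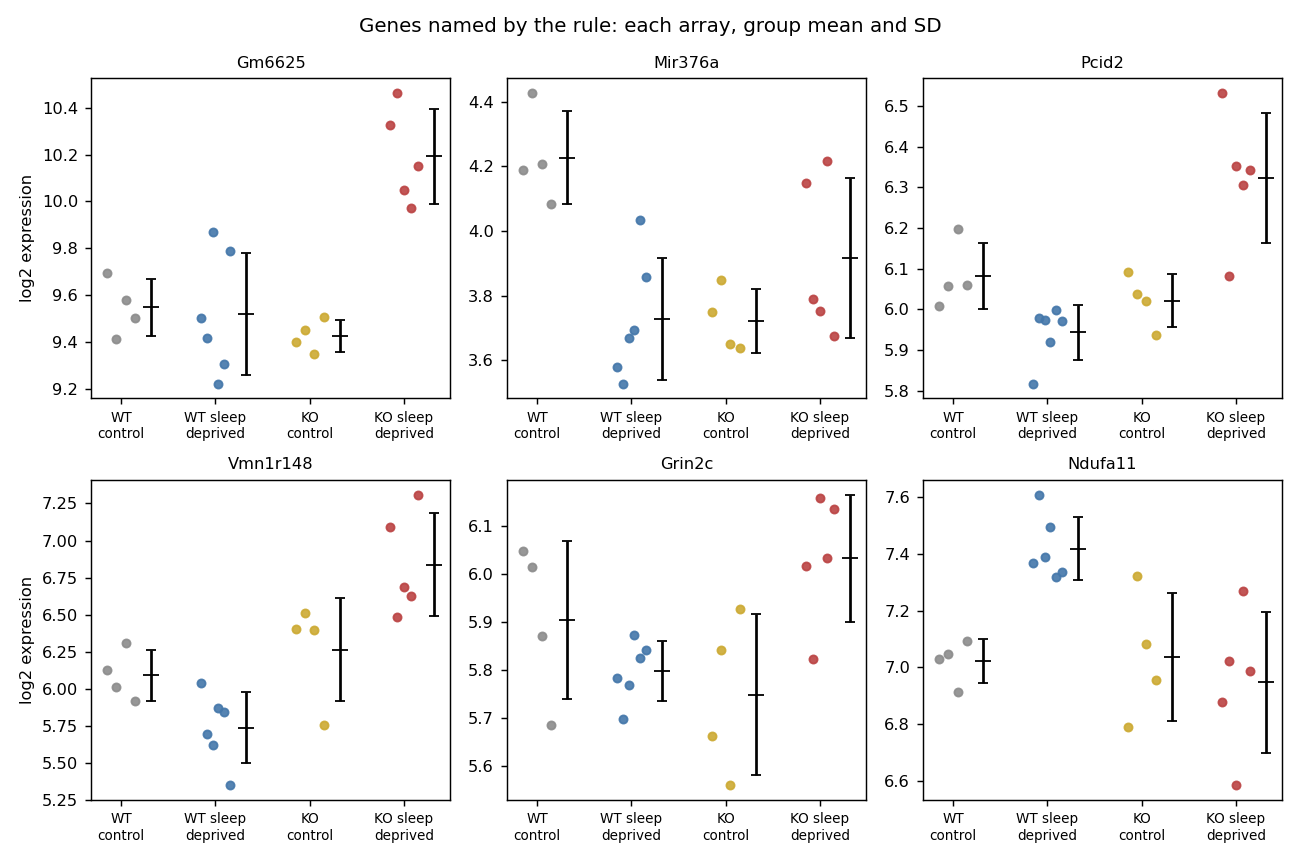
Log2 expression (y axis) of Gm6625, Mir376a, Pcid2, Vmn1r148, Grin2c and Ndufa11 in each array of the 4 groups (points), with the group mean and SD (bars). Gm6625 is high in the deprived knockouts alone, Mir376a is high in the wild-type controls, and Ndufa11 is high in the deprived wild types. The group that stands out thus differs between these genes.

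Further protein-coding genes had small p-values and a positive interaction. Their interactions were 0.39 for Ssbp1, which binds single-stranded mitochondrial DNA, 0.55 for Riok2, a kinase of small ribosomal subunit maturation, 0.73 for Mid1, a microtubule-bound ubiquitin ligase, 0.47 for Foxj2, a forkhead transcription factor, 0.38 for Tpm4, an actin-binding tropomyosin, and 0.38 for Luzp2. Their limma adjusted p-values ran from 0.216 to 0.251. For Riok2 and Luzp2 the fitted change was larger in size in wild type, -0.35 and -0.23 against 0.20 and 0.15 in the knockout. For Tpm4 it was larger in the knockout, 0.40 against 0.02 in wild type. Which genotype sets these differences was not tested. The transcribed pseudogene Morf4l1-ps1 had an interaction of 0.56, and the predicted genes Gm5528, Gm906 and Gm13981 had 0.71, 0.65 and 0.36.

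On the negative side, Swsap1, a DNA recombination factor, had an interaction of -0.37, U2af1l4, a splicing factor of the U2AF family, -0.50, and Ndufa11, a subunit of respiratory complex I, -0.49. For Ndufa11, deprived wild types read 7.32 at the lowest, 7.38 at the median and 7.61 at the highest, above wild-type controls (7.03, 7.05, 6.91 and 7.09). Knockout levels were 6.79, 7.32, 7.08 and 6.96 in controls and 6.88, 7.02, 6.58, 7.27 and 6.99 after deprivation, which overlapped. Its change was 0.40 ± 0.11 (SE) in wild type and -0.09 ± 0.12 (SE) in the knockout (limma adjusted p = 0.254 for the difference). For U2af1l4 the larger fitted change was instead in the knockout, -0.39 against 0.11 in wild type. Rplp1, an acidic protein of the ribosomal stalk, read 11.45, 11.49, 11.46, 11.50 and 11.48 in deprived knockouts, below every other array, with an interaction of -0.23 (limma adjusted p = 0.263). Another, dimmer probe set of Rplp1 had an interaction of -0.03 (limma adjusted p = 0.952). Wild-type controls of Rplp1 read 11.57, 11.55, 11.60 and 11.60, knockout controls 11.58, 11.71, 11.63 and 11.62, and deprived wild types 11.55 to 11.70. The remaining negative genes were Tcl1b3 (-0.45), the patterning gene Hoxd3 (-0.32), the complement factor gene Cfb (-0.28), the ciliary gene Tmem67 (-0.31), the matrix protein gene Svep1 (-0.43) and Rpl32 (-0.24), a ribosomal protein gene, with limma adjusted p-values from 0.291 to 0.357.

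MicroRNAs are short RNAs that lower their target transcripts, which they recognise mainly through bases 2 to 8, the seed. The probe sets read the precursor transcript, so the values below do not measure the mature microRNA. Of 43 precursors measured, 0 passed in limma (5 had a positive and 2 a negative interaction at an unadjusted p under 0.05, together 16.3% beside 11.5% of all probe sets). Of their interactions 27 were positive and 16 negative, 62.8% positive beside 49.5% over all probe sets, and the median was 0.09 beside 0.00. The mature sequences of those with the smallest p, and of Mir219a-2 for its equal change in both genotypes, are shown because a precursor acts through the seed it carries. They are from RefSeq (GRCm38.p6), 5′ to 3′, with the seed in capitals.
mmu-miR-376a-5p: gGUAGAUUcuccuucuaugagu
mmu-miR-376a-3p: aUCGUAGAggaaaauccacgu
mmu-miR-1191a: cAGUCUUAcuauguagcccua
mmu-miR-1956: aGUCCAGGgcugagucagcgga
mmu-miR-703: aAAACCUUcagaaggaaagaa
mmu-miR-713: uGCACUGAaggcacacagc
mmu-miR-219a-5p: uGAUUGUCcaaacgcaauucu
Of the 43 precursors, 37 had a mature sequence in the table. The seeds shown differ from each other, and none is carried by another of these 37 precursors. Seeds of the rest were not compared.

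Mir376a, at chr12:109723786-109723844 on the plus strand from the first to the last mature base, had log2 levels of 4.19, 4.43, 4.21 and 4.08 in wild-type controls. Knockout controls read 3.75, 3.85, 3.65 and 3.64, deprived wild types 3.53 at the lowest, 3.68 at the median and 4.03 at the highest, and deprived knockouts 4.15, 3.79, 3.75, 4.22 and 3.68. The wild-type controls stood above the knockout controls and the deprived wild types without overlap, and only deprived knockouts reached their range. The interaction was 0.69 (95% confidence interval 0.35 to 1.04, limma adjusted p = 0.179), from a change of -0.50 ± 0.12 (SE) in wild type and 0.19 ± 0.12 (SE) in the knockout. Its mean lay above only 16.1% of probe sets, so the signal is low.

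Mir376a lies in the imprinted cluster of microRNAs and small RNAs downstream of Meg3. The other 8 measured genes within 1 Mb, a list made after the value of Mir376a was seen, had smaller interactions, and none reached an unadjusted p under 0.05. Those of precursors were 0.27 for Mir299a, -0.07 for Mir380, 0.23 for Mir377 and 0.35 for Mir409. Their seeds differ from those of Mir376a, and 1 arm of each is shown.
mmu-miR-299a-5p: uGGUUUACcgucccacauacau
mmu-miR-380-3p: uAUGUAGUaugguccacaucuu
mmu-miR-377-3p: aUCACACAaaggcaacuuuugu
mmu-miR-409-3p: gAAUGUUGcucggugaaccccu
The long noncoding RNA Meg3 had an interaction of 0.11. Of all 9, 7 were positive, with a median of 0.23.

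The other precursors were brighter and followed no single pattern. Mir1191 (interaction 0.43) and Mir703 (0.48) had the larger fitted change in the knockout, 0.32 and 0.40 against -0.11 and -0.08 in wild type. Mir713 (0.43) had changes of 0.23 in the knockout and -0.21 in wild type, and Mir1956 (-0.37) had -0.17 and 0.20. Their limma adjusted p-values ran from 0.227 to 0.365. Mir219a-2, a precursor of an oligodendrocyte-enriched microRNA, changed by -0.36 ± 0.09 (SE) in each genotype, and its interaction of 0.00 had a 95% confidence interval of -0.27 to 0.27.

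Small nucleolar RNAs guide the chemical modification of ribosomal and other RNAs. Of 10 measured, 0 passed in limma and 1 had an unadjusted p under 0.05, which is 10% beside 11.5% of all probe sets. Of their interactions 9 were positive (90% beside 49.5%), and the median was 0.21, or 0.16 after quantile normalization. Their median log2 level was 9.27, and among the brightest 20% of probe sets 65.1% of interactions were positive. Snord19 read 6.09, 6.28, 6.09 and 6.14 in wild-type controls, 5.76, 5.83, 5.74 and 5.69 in knockout controls, 6.19, 6.43, 6.17, 5.77 and 5.81 in deprived knockouts, and 5.05 to 6.18 with a median of 5.79 in deprived wild types. The control groups did not overlap, and the deprived groups did. Its interaction was 0.77 (limma adjusted p = 0.217). Snord65, Snord22 and Snord99 had interactions of 0.36, 0.25 and 0.18, with limma adjusted p-values from 0.453 to 0.551.

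Genes of glutamate and GABA signalling were represented by 5 of the 68 listed, of which 0 passed and 2 had an unadjusted p under 0.05 (40% beside 11.5% of all probe sets, on few genes). Grin2c, the GluN2C subunit of the NMDA receptor, read 6.02, 5.82, 6.16, 6.03 and 6.14 in deprived knockouts, 5.66, 5.84, 5.56 and 5.93 in knockout controls, 6.05, 6.02, 5.87 and 5.69 in wild-type controls, and 5.70 to 5.87 with a median of 5.80 in deprived wild types. All groups overlapped with at least 1 other. Its interaction was 0.39 (95% confidence interval 0.13 to 0.65, limma adjusted p = 0.246), with a change of 0.28 ± 0.09 (SE) in the knockout and -0.11 ± 0.09 (SE) in wild type. Abat, the enzyme that breaks down GABA, had an interaction of 0.23 (limma adjusted p = 0.43). Grin2d, another NMDA receptor subunit, had 0.01 (95% confidence interval -0.25 to 0.27), and Shank3, a postsynaptic scaffold, had -0.04 (-0.27 to 0.18).

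Stress and chaperone genes numbered 5 measured of 108 listed, with 0 past the threshold and 1 at an unadjusted p under 0.05 (20% beside 11.5% of all probe sets). That gene was Ptges3, the co-chaperone p23 of Hsp90, with an interaction of 0.43 (limma adjusted p = 0.381), and its levels in deprived knockouts, 5.36, 6.04, 5.80, 5.33 and 5.33, were high in replicates 2 and 3 alone. Fkbp5, a glucocorticoid-induced co-chaperone, read 8.31, 8.32, 8.34, 7.91 and 8.07 in deprived knockouts and 7.79 to 8.13 with a median of 7.96 in deprived wild types. The controls read 7.65, 7.75, 7.61 and 7.78 in the knockout and 7.77, 7.48, 7.72 and 7.59 in wild type. Both deprived groups lay above their controls and overlapped each other, and the interaction was 0.15 (95% confidence interval -0.13 to 0.43, limma adjusted p = 0.689). Hspa8, the constitutive Hsc70 chaperone, had an interaction of 0.10 (-0.12 to 0.31). The interval for Fkbp5 takes in a difference as large as its wild-type change of 0.34.

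EphA4's own pathway was represented by 2 of 60 listed genes. Chn1, the chimaerin that inactivates Rac downstream of EphA4, had an interaction of 0.02 (95% confidence interval -0.21 to 0.26), and Cfl1, the actin-severing cofilin, had -0.14 (-0.31 to 0.04). Neither passed, with limma adjusted p-values of 0.952 and 0.538. Of 61 activity-regulated and clock genes 2 were measured, Klf7 (0.22) and Elk1 (0.06), both transcription factors. Of 14 measured genes within 20 Mb of Epha4, 1 (Gm5528) had an unadjusted p under 0.05 (7.14% beside 11.5% of all probe sets), and 6 interactions were positive and 8 negative.

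Genes of the respiratory chain and ATP synthase went both ways. Of 7 measured, 0 passed, and Atp5l (0.38) and Uqcrb (0.25), subunits of ATP synthase and of complex III, were positive where Ndufa11 was negative, each at an unadjusted p under 0.05. That is 42.9% of the list, beside 11.5% of all probe sets, from 3 genes. Ribosomal protein genes did so too, with 1 of 24 positive (Rps13, 0.41) and 2 negative (Rplp1 and Rpl32) at that level (12.5%) and a median of 0.04, which was -0.03 after quantile normalization. Of 10 histone genes, 1 reached it (10%), H4c1 (0.41), and the median was 0.15. H4c8 and H4c12 had 0.46 and 0.20, while H4c9 had 0.28 and H4c14 -0.01. Zinc finger genes had 1 of 29 at that level (3.45%), Zfp979 (0.35). A dimmer probe set of Zfp979 had an interaction of -0.14 ± 0.17 (SE) at a mean log2 level of 2.78. The lowest value on any array was 2.18, so the signal of that probe set is low. Olfactory and vomeronasal receptors had 2 of 37 (5.41%), predicted Gm genes 24 of 230 (10.4%), RIKEN clones 8 of 65 (12.3%), MHC genes 0 of 5 and kinesins, dyneins and axonemal genes 0 of 4. The 9 measured genes of RNA polymerases, splicing and mRNA export had a median of 0.10, and 1 of them, Pcid2, had an unadjusted p under 0.05 (11.1%). In all of these lists 0 genes passed in limma, so none is described as changed.

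**Figure D5:**
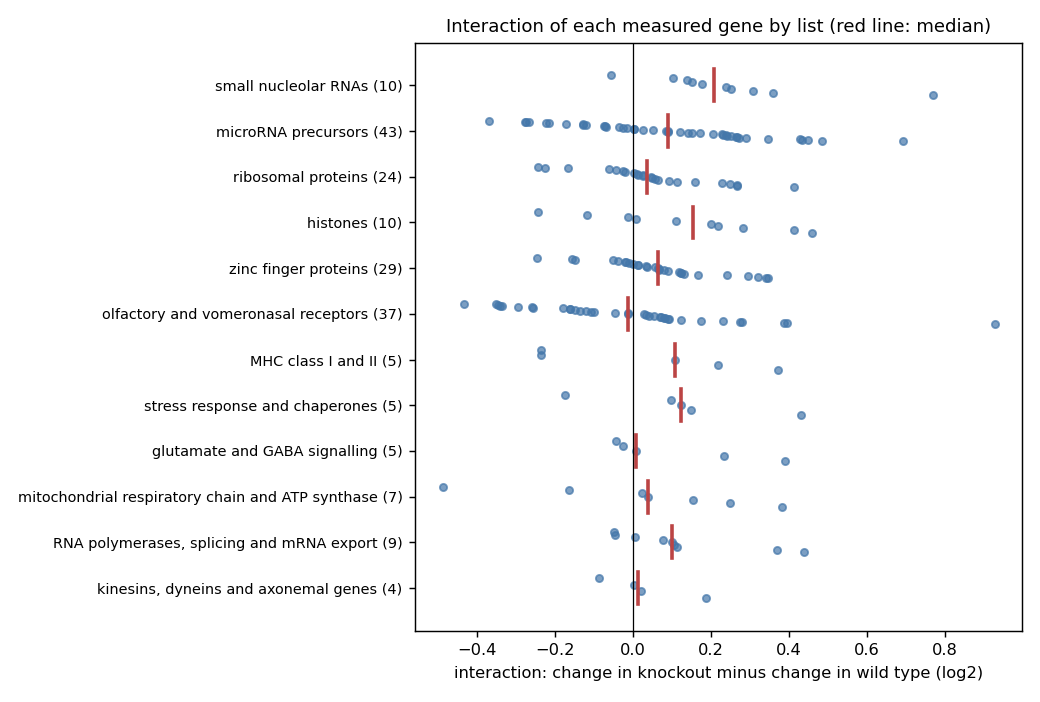
Interaction on the log2 scale of each measured gene (points) in the gene lists (rows), with the list's median (bar). Points lie on both sides of 0 in most lists, and those of small nucleolar RNAs and histones have medians of 0.21 and 0.15.

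Several genes had nearly the same fitted change in both genotypes. Wdr78 changed by 0.26 in the knockout and 0.25 in wild type, H4c14 by 0.26 and 0.27, and Polr2k, a small subunit of the RNA polymerases, by 0.20 and 0.20. Their 95% confidence intervals for the interaction were -0.23 to 0.23, -0.29 to 0.26 and -0.26 to 0.27. Another, dimmer probe set of Polr2k had an interaction of 0.59 (limma adjusted p = 0.282), so the probe sets of this gene disagree. Pdzd2, a PDZ domain protein, had changes of 0.17 and 0.31 and an interaction of -0.15 (-0.34 to 0.05), and Gpd1, a cytosolic glycerol phosphate dehydrogenase, had 0.10 and 0.27 and an interaction of -0.18 (-0.39 to 0.04). The kinesin heavy chain Kif5b had 0.19 (-0.03 to 0.41), and the MHC gene H2-Q10 0.22 (-0.29 to 0.72). None of these intervals shows that the genotypes respond alike.

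How small a difference could be called follows from the spread. Over all probe sets the median standard error of the interaction was 0.15, and the median interaction was 0.00. The smallest interaction called was 0.73 in size, while 426 probe sets exceeded 0.5 and 18 exceeded 1 in size. Differences near the median standard error were not detectable at these group sizes.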

How the data were processed

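RNA from 19 forebrain samples was measured on Affymetrix Mouse Gene 2.0 ST arrays. The deposited values are log2 expression per probe set and array. RMA, oligo and limma are named in the submitters' processing notes, while the sources used here do not give versions, roles or the genome build. Values were used as deposited, and 346 of the 8751 rows repeated an earlier one. No column belonged to another series.

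Samples were grouped by the genotype and treatment in their titles. limma 3.58.1 in R 4.3.3 fitted the 4 group means to all 19 arrays without covariates. The interaction was tested with moderated statistics (eBayes) with Benjamini-Hochberg adjustment over all 8751 rows and a threshold of 0.05. There is no read depth for arrays, and the number of arrays limits precision. Genes were named from the platform annotation where a probe set had 1 symbol, with the probe set of highest mean per gene, and 1045 of 1121 were found by identifier in the RefSeq gene table (GRCm38.p6). MicroRNA sequences came from RefSeq of the same assembly.

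Named features were all called probe sets, the 10 genes of smallest p in each direction outside the predicted, clone, microRNA and small nucleolar classes, the 5 of smallest p among predicted genes, 5 among microRNA precursors and 4 among small nucleolar RNAs, up to 3 in each list, and 19 genes set by name. Members and lists were chosen with earlier results of these data known. Alternatives covered the variance prior, array weights, dim, unnamed and repeated rows, quantile normalization, median centring, the replicate number, the threshold and leaving out each array. Scripts were tested on simulated data. Figures were made in Python 3.11.15 with matplotlib 3.10.9.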

Additional observations from a re-analysis of the deposited data

Results flagged for a closer look

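The 6 probe sets whose response differed between genotypes by a test of the difference itself (limma, adjusted over all probe sets) had interactions of 2.06 (17529227), 0.73 (17366928), 0.86 (17520156), -0.76 (17267654), 0.91 (17247498) and 0.83 (17366904) on the log2 scale.

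Among the 81 named features, 17 of 324 groups held an array far from the rest of its group by Dixon's test, and chance gives about 1 in 20. In wild-type controls these were replicate 4 for 17520156 (log2 level 5.89) and Gm5528 (8.02), replicate 2 for Ptges3 (5.63) and replicate 1 for Hnrnpu (10.54). In deprived wild types replicate 2 stood apart for H2-K1 (7.96) and Mir219a-2 (7.21). Knockout controls had replicate 4 apart for Vmn1r148 (5.75) and Riok2 (5.27), and replicate 2 for Atp5l (9.91) and Cfl1 (11.49). In deprived knockouts the arrays apart were replicate 2 for Swsap1 (7.59), replicate 3 for H4c1 (5.98) and H2-K1 (7.18), replicate 4 for Mir703 (9.80) and replicate 5 for Zfp979 (7.32), Dync2h1 (8.20) and H4c14 (6.32).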

How the results depend on the processing

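The count of 6 called probe sets was 9 with array weights, 4 with quantile normalization and 6 with median centring or at an adjusted p under 0.1. Leaving out each array in turn gave 2 to 41. When testing was limited to probe sets with 1 symbol, 0 passed in limma (147 at an unadjusted p under 0.05). Without the 3 arrays of lowest weight, a choice made after seeing the data, 2 passed, 1 of them among the 6. No pairing of samples by the replicate numbers of the labels was seen over all probe sets. Of 25 same-numbered pairs 0 correlated above 0.1, and 0 of 19 arrays matched best within their own number. A pairing that acts on few probe sets could not be seen this way. Sleep-deprived wild-type replicate 6 had no array of the same number to match. With the replicate number as a block, 5 probe sets passed, 4 of them among the 6 called with all arrays. With the replicate block on replicates 1 to 4 only, 2 passed, 1 of them among the 6. Fewer rows or arrays entered some of these fits, and otherwise the cause was not tested. None of the named interactions larger than its standard error changed sign in the alternatives run, and smaller ones were given no direction. For the 14 gene lists recomputed under both scalings, the medians moved by less than their spread. Those near Epha4 and Mir376a, of the Eph pathway and of activity-regulated genes were not recomputed. The scalings moved the median interaction of all probe sets by less than 0.1. Arrays limit what is seen: the signal over background of each probe set is unknown from these values.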
